A study of Mus musculus with 12 samples.

Results

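Genes that mark the atria, the sinus region and the valve canal of the developing heart were followed across 12 dissected mouse hearts at E15.5, to see whether the share of these chambers differed between hearts and between genotypes. The 8 genes, fixed by name, were Nr2f1, Nr2f2, Stard10, Dkk3, Fgf12, Tbx2, Tbx3 and Shox2. All probes that the platform annotation gives to one of these symbols were taken, which gave 21 of the 45267 probes on the arrays, from 7 of the 8 genes. Nr2f1 was not analysed here. The hearts came from a line with a gene-trap allele of Ddc, on a mixed background. Groups were 3 wild-type hearts (WT, Ddc+/+), 4 with the deletion inherited from the mother (MatKO), 4 with the deletion inherited from the father (PatKO) and 1 with it on both alleles (KO). Ddc encodes dopa decarboxylase, which makes dopamine and serotonin, and its heart transcript is read from the paternal allele. The study combined PatKO and KO as ablated (5 hearts) and WT and MatKO as controls (7 hearts). The allele is not restricted to the heart, and homozygous embryos are found below the Mendelian number. The KO group is a single embryo. The sources used here do not say which embryos were littermates, so p-values measure the spread between these hearts.

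The atria and ventricles of the embryonic heart are set apart by transcription factors that switch a chamber program on or hold it back. Nr2f1 and Nr2f2 are orphan nuclear receptors of atrial myocardium, and Nr2f2 also sets the identity of venous endothelium. Tbx2 and Tbx3 are T-box repressors that keep the atrioventricular canal and, for Tbx3, the conduction system from becoming working chamber muscle, and Shox2 is a homeobox factor that protects the sinus node program. Among the others, Dkk3 is a secreted protein of the Dickkopf family, Stard10 carries phospholipids between membranes, and Fgf12 is an intracellular member of the fibroblast growth factor family that binds voltage-gated sodium channels and is also found in neurons.

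Signals were log2 values, and 7 of the 21 probes had a mean of 7 or more over the 12 hearts. These bright probes belonged to Dkk3, Stard10, Tbx3 and Tbx2. The other 14 probes, all of Nr2f2, Shox2 and Fgf12 among them, were dim, with means of 4.84 to 6.64 where the lowest value on the arrays was 4.58. Array medians lay between 5.61 and 5.62. Ddc probe ILMN_1260450 read 13.42 to 14.12 in the 7 control hearts and 9.12 to 10.44 in the 5 ablated hearts. Every heart thus carried the Ddc level of its side, ablated or control. WT, at 13.66 to 14.12, and MatKO, at 13.42 to 13.99, overlapped, so this level does not check those 2 labels. The place of the probe relative to the trapped part of the gene is not known here. Xist, which is read from the inactive X chromosome of females, was at 4.75 to 5.99 in MatKO replicate 3 and PatKO replicates 1 and 3 and at 12.57 to 13.52 in the others, so sex was mixed within MatKO and PatKO. Each probe was tested with limma, with p-values adjusted by Benjamini-Hochberg over all probes. An array holds RNA of the whole dissected heart, so fewer cells of a type and less RNA per cell cannot be told apart.

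No member probe passed an adjusted p of 0.05 in any comparison of genotypes. Between PatKO and WT hearts 0 of 21 member probes passed, beside 0.00663% of all probes, and 0 had an unadjusted p under 0.05, beside 3.93% of all probes. Between MatKO and WT the member counts were again 0 and 0, beside 0% of all probes at the adjusted threshold and 4.88% at the unadjusted one. Between PatKO and MatKO, the comparison of the reciprocal heterozygotes, they were 0 and 0 beside 0.00663% and 7.12%. Ablated against control hearts gave 0 and 0 beside 0.00884% and 5.46%. KO against WT gave 0 at the adjusted threshold, beside 0.0729%, and 2 member probes at the unadjusted one, beside 4.91%, both of them dim probes of Fgf12. The F test over the 4 genotypes gave 0 at the adjusted threshold, beside 0.0309%, and 1, again of Fgf12, at the unadjusted one, beside 5.82%. With these few calls over the whole array, a count of 0 among 21 probes is near the background.

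Dkk3 had a lower mean in PatKO than in WT or MatKO hearts, by less than the test could separate. Its probe ILMN_2852957 read 12.11, 12.80 and 12.44 in the WT hearts, 12.58, 12.59, 12.76 and 12.14 in MatKO, 11.96, 11.86, 12.27 and 12.58 in PatKO, and 12.84 in KO. WT, MatKO and PatKO overlapped, with PatKO replicates 1 and 2 lowest and the KO heart highest of the 12. Means were 12.45 ± 0.34 (SD, n = 3) in WT, 12.52 ± 0.27 (SD, n = 4) in MatKO and 12.17 ± 0.33 (SD, n = 4) in PatKO. PatKO lay below MatKO by a log2 difference of -0.35 (SE 0.20, limma adjusted p = 0.798), which is 0.78 times the MatKO signal with a 95% interval of 0.58 to 1.06. A second Dkk3 probe, ILMN_2746556, gave -0.41 (SE 0.22, limma adjusted p = 0.769) for the same comparison. Over the 12 hearts the probes of this pair ran together with a Pearson r of 0.94, so the spread of Dkk3 between hearts was seen by both. For both, the range of the WT, MatKO and PatKO means (0.35 and 0.41) was slightly larger than the SD within genotypes (0.31 and 0.34). KO lay above WT by 0.39 (SE 0.32), a difference that rests on 1 KO heart and whose 95% interval, 0.80 to 2.15 times, includes no change.

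Stard10 spread as widely between hearts and less between genotypes. Probe ILMN_2759762 read 10.88, 10.24 and 9.93 in WT, 10.24, 10.07, 10.68 and 10.61 in MatKO, 10.74, 10.43, 10.14 and 10.73 in PatKO, and 10.81 in KO. The highest and the lowest of the 12 hearts were both WT. Group means were 10.35 ± 0.48 (SD, n = 3), 10.40 ± 0.30 (SD, n = 4) and 10.51 ± 0.29 (SD, n = 4) in WT, MatKO and PatKO, a range of 0.16 beside an SD within genotypes of 0.35. PatKO differed from WT by 0.16 (SE 0.24, limma adjusted p = 1) and from MatKO by 0.11 (SE 0.22, limma adjusted p = 0.971). The 95% interval of PatKO over WT was 0.78 to 1.61 times, so changes of that size could not be told from 0 with these hearts. The dimmer Stard10 probe ILMN_2625601 ran from 6.69 in MatKO replicate 2 to 8.21 in MatKO replicate 3, and followed the first with an r of 0.65.

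**Figure D1:**
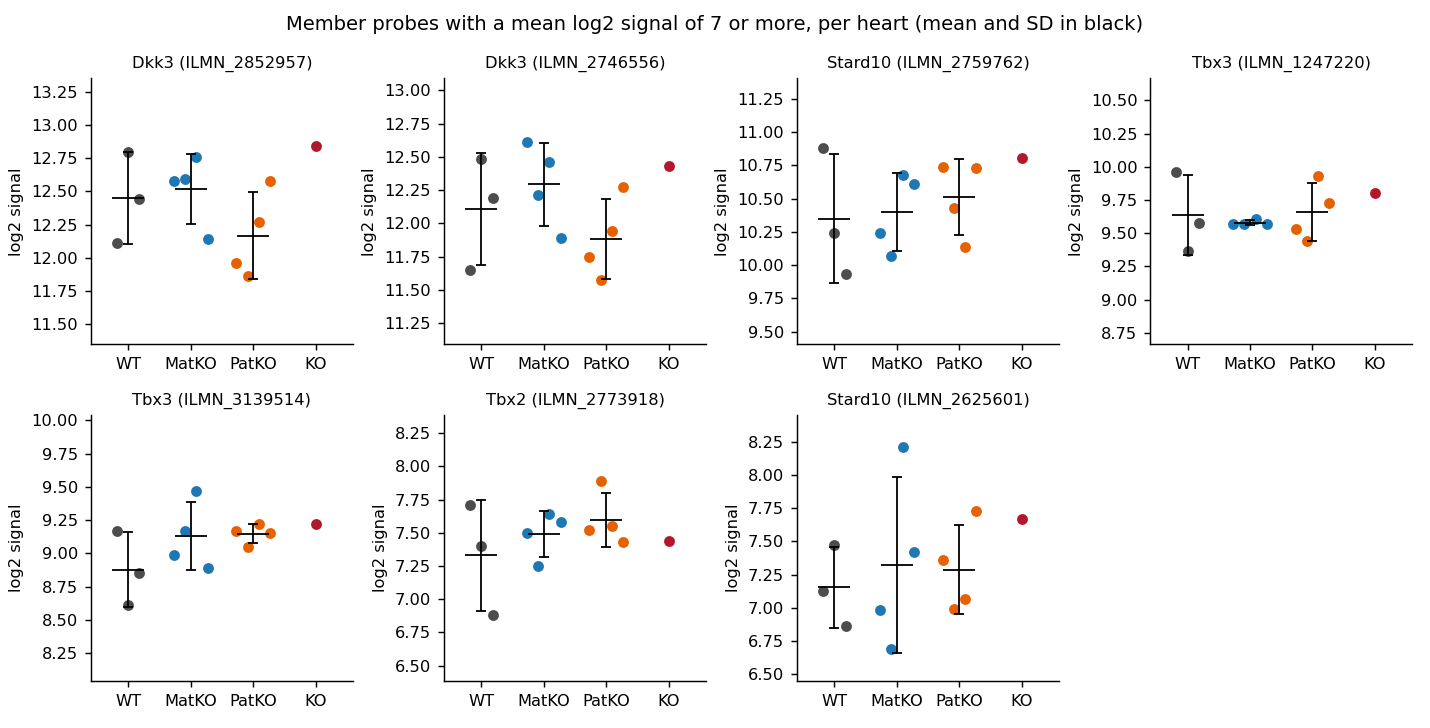
Log2 signal (y axis, each panel 2 units high) of the 7 member probes with a mean of 7 or more in each heart, by genotype (x axis). Points are hearts, and black marks give the mean and SD of groups with more than 1 heart. In each panel WT, MatKO and PatKO overlap, and Dkk3 in PatKO (mean 12.17 for ILMN_2852957) has the lowest group mean beside 12.45 in WT and 12.52 in MatKO.

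Of the bright member probes, those of the T-box repressors of the valve canal spread least over the 12 hearts. Tbx3 probe ILMN_1247220 read 9.96, 9.37 and 9.58 in WT, 9.57, 9.57, 9.61 and 9.57 in MatKO, 9.53, 9.44, 9.93 and 9.73 in PatKO, and 9.80 in KO. The MatKO hearts were nearly equal and lay inside the range of WT and of PatKO. PatKO differed from WT by 0.02 (SE 0.15, limma adjusted p = 1), with a 95% interval of 0.81 to 1.27 times. The second Tbx3 probe, ILMN_3139514, was at 8.61 to 9.17 in WT, 8.89 to 9.47 in MatKO, 9.05 to 9.22 in PatKO and 9.22 in KO, and PatKO differed from WT by 0.27 (SE 0.16, limma adjusted p = 1). Its group means spanned 0.27 beside an SD within genotypes of 0.21, whereas those of the first probe spanned 0.08 beside 0.20. The Tbx3 probes correlated at 0.52 over the 12 hearts, so they ranked the hearts only partly alike.

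Tbx2 probe ILMN_2773918 read 7.71, 7.40 and 6.88 in WT, 7.50, 7.25, 7.64 and 7.58 in MatKO, 7.52, 7.89, 7.55 and 7.43 in PatKO, and 7.44 in KO. WT replicate 3 was the lowest heart and PatKO replicate 2 the highest. The PatKO mean, 7.60 ± 0.20 (SD, n = 4), lay above that of WT, 7.33 ± 0.42 (SD, n = 3), by 0.27 (SE 0.19, limma adjusted p = 1), and the groups overlapped. Without WT replicate 1 this difference was 0.46, with a limma adjusted p of 0.823.

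**Figure D2:**
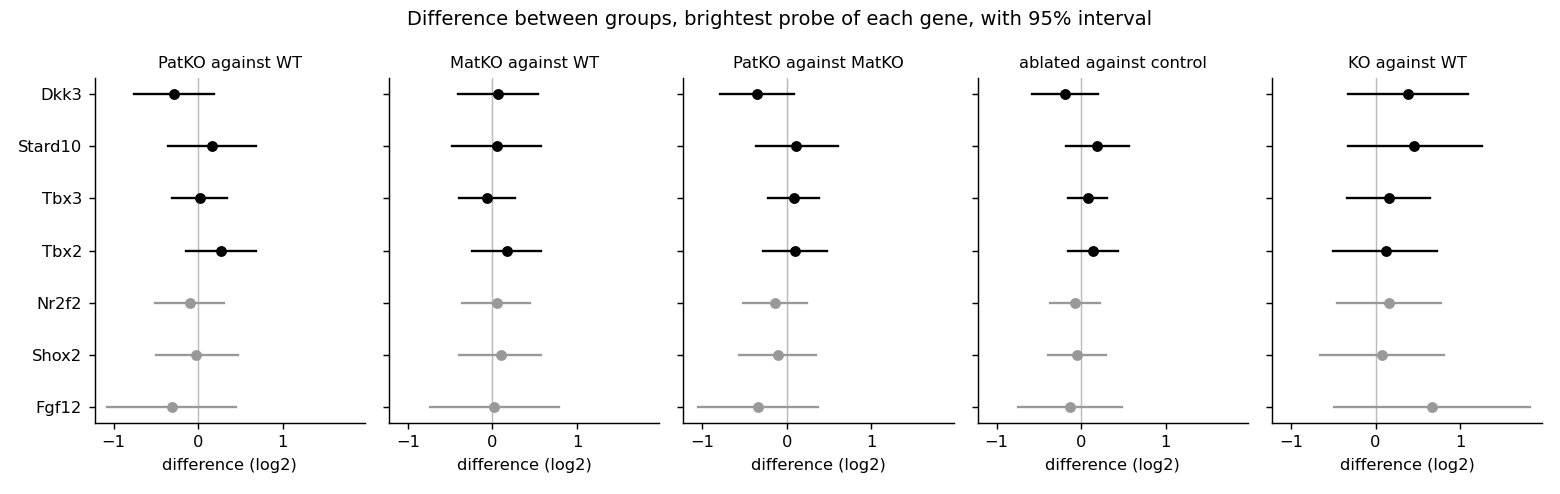
Difference in log2 signal (x axis) of the brightest probe of each member (y axis) in 5 comparisons of genotype, the first group minus the second. Points are limma estimates and lines their 95% intervals, black for probes with a mean of 7 or more and grey for dimmer ones. Every line crosses 0, including Dkk3 in PatKO against MatKO at -0.35, and the lines are longest for KO against WT, where 1 group is 1 heart.

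Nr2f2 and Shox2 were read only by dim probes, where part of the signal is background, and did not separate the genotypes. The brightest Nr2f2 probe, ILMN_3163196, read 6.78, 6.73 and 6.43 in WT, 6.61, 6.72, 6.91 and 6.53 in MatKO, 6.67, 6.99, 6.14 and 6.39 in PatKO, and 6.80 in KO. PatKO replicates 2 and 3 held the highest and the lowest value, and PatKO differed from MatKO by -0.14 (SE 0.17, limma adjusted p = 0.943). Of the other 3 Nr2f2 probes, ILMN_2695912 and ILMN_2617297 stayed between 4.64 and 5.20 in all hearts. Shox2 probe ILMN_2647121 lay at 6.24 to 6.64 in WT, 6.13 to 6.68 in MatKO, 5.93 to 6.92 in PatKO and 6.49 in KO. The span of its group means, 0.11, was smaller than the SD within genotypes of 0.32. The other dim probes of members lay at 4.90 to 6.31 for Nr2f2 ILMN_3076625, 4.88 to 5.97 for the remaining Shox2 probes, 5.24 to 6.49 for ILMN_1228778 and ILMN_3061990 of Tbx3, 5.07 to 5.90 for Tbx2 ILMN_2585774 and 4.87 to 5.71 for Dkk3 ILMN_1224173. None had an unadjusted p under 0.05 in a comparison of genotypes.

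Fgf12 had the only member probes with an unadjusted p under 0.05, and these were in the KO heart. Probe ILMN_1243357 read 4.91, 5.41 and 5.18 in WT, 5.22, 5.26, 6.06 and 5.58 in MatKO, 5.45, 5.21, 5.38 and 6.25 in PatKO, and 6.94 in KO. The KO heart was the highest of the 12, and its difference from WT was 1.77 (SE 0.40, unadjusted p = 0.00106, adjusted p = 0.241 in limma across all probes). Probe ILMN_1229525, which lay at 4.68 to 5.15 in all hearts, differed by 0.33 (unadjusted p = 0.0396, adjusted p = 0.991 in limma across all probes). The brightest probe, ILMN_1221164, read 6.54 in KO and 5.05 to 6.84 in WT, so the KO heart was inside the WT range there. A neuronal gene and most liver genes were also at their highest in the KO heart. Stmn2, a microtubule regulator of neurons, read 9.68 in KO and 6.46 to 8.53 elsewhere, and passed against WT (difference 2.91, limma adjusted p = 0.0492). Stmn2 was the 1 bright gene among 6 measured in the cardiac ganglion and neuron list, and it set the list's mean level, which was 6.15 in KO, 5.43 to 5.77 in WT, 5.51 to 5.71 in MatKO and 5.76 to 6.00 in PatKO. The other 5 genes were dim, and without Stmn2 the KO heart, at 5.45, lay within the range of WT (5.20 to 5.48) and of PatKO (5.39 to 5.57). The part of neural tissue in the Fgf12 reading was not tested.

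**Figure D3:**
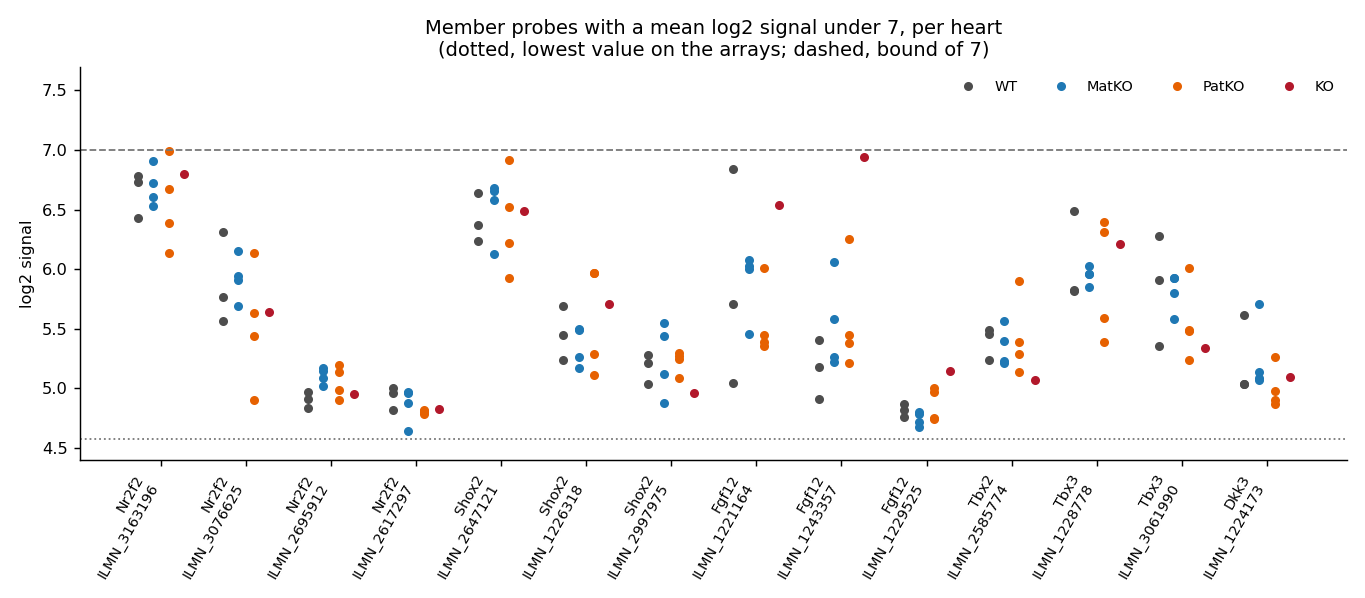
Log2 signal (y axis) of the 14 member probes with a mean under 7, per heart, grouped by gene and probe (x axis) and coloured by genotype. The dotted line is the lowest value on the arrays (4.58) and the dashed line the bound of 7. The KO heart stands above the rest in Fgf12 ILMN_1243357 at 6.94, and genotypes overlap in the brightest probes of Nr2f2 and Shox2.

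The main axis of variation, the first principal component of the 16120 bright probes, held 27.1% of their variance and cut across genotypes, and Stard10 and Dkk3 varied along it. Its score was negative in WT replicate 1, MatKO replicates 3 and 4, PatKO replicates 1 and 2 and the KO heart, and positive in the other 6. The arrays were on 2 slides, and the slide of each heart was not known, so slide and this axis cannot be told apart. Stard10 ILMN_2759762 lay at 10.43 to 10.88 in the 6 hearts with a negative score (median 10.71) and at 9.93 to 10.73 in the others (median 10.19), where PatKO replicate 4 was the only heart above 10.24. Dkk3 ILMN_2852957 ran the other way, with medians of 12.12 and 12.58, although the KO heart and MatKO replicate 3 were high within the first 6. Tbx3 ILMN_1247220 had nearly the same median in both sets, 9.59 and 9.58. With the side of this axis as a block, a setting chosen after seeing the data, Dkk3 in PatKO against MatKO was again -0.35 (unadjusted p = 0.0476, adjusted p = 0.531 in limma across all probes). The axis was computed from the same arrays with Dkk3 among the bright probes, so this p is no independent support. In the same fit Dkk3 in KO against WT was 0.64, where it was 0.39 without the block. This difference rests on 1 KO heart, and WT replicate 1 was the only WT heart on the same side.

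**Figure D4:**
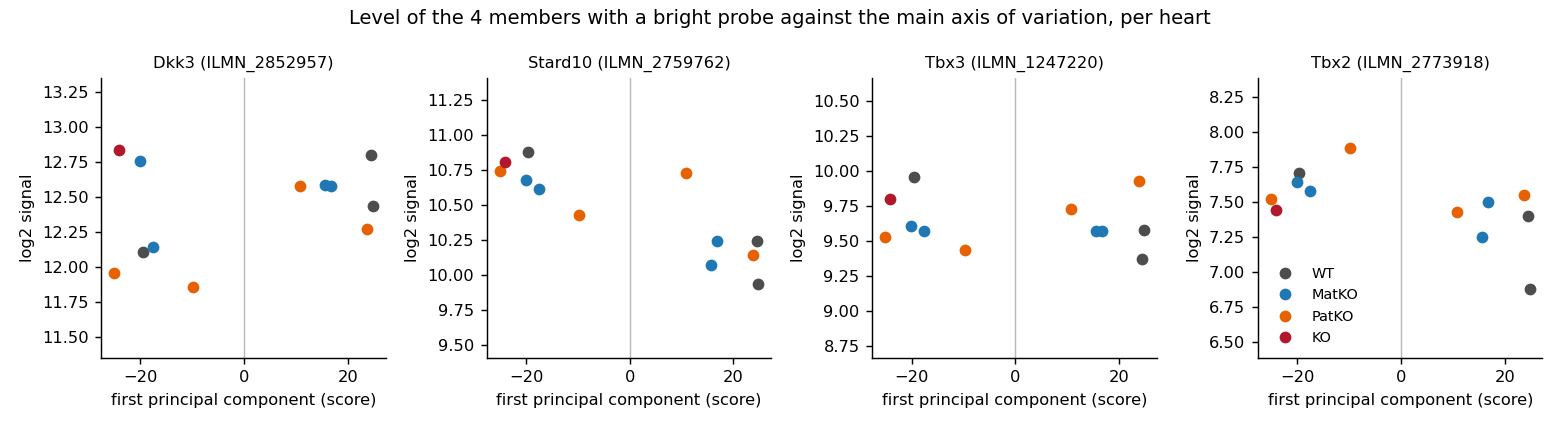
Log2 signal (y axis, each panel 2 units high) of the brightest probe of Dkk3, Stard10, Tbx3 and Tbx2 against the score of each heart on the first principal component (x axis). Points are hearts, coloured by genotype. The 6 hearts with a negative score hold Stard10 at 10.43 to 10.88, and 5 of the other 6 lie at or below 10.24.

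Set among all bright probes, Stard10 and Dkk3 ranked high by their spread between hearts and Tbx3 near or below the middle. The SD over 12 hearts was 0.33 for Stard10 ILMN_2759762 and 0.34 for Dkk3 ILMN_2852957, at the 79.9 and 81.7 percentiles of the 16120 bright probes. It was 0.25 for Tbx2 ILMN_2773918 (percentile 63.2) and 0.18 for Tbx3 ILMN_1247220 (percentile 37.7). The second bright probes of Stard10, Dkk3 and Tbx3 had SDs of 0.43, 0.35 and 0.22, at the 91.6, 84.1 and 53.6 percentiles. These percentiles are descriptions, since SD also moves with signal.

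The members did not all rise and fall together. Stard10 and Dkk3, by their brightest probes, had a Pearson r of -0.14 over the 12 hearts, and 0.41 and 0.29 within the 6 hearts on either side of the main axis. Stard10 and Tbx2 had an r of 0.58, which was -0.62 and 0.54 within the sides. Tbx2 and Tbx3 had an r of 0.11. Stard10 and Tbx3 had 0.33, and 0.87 and 0.18 within the sides, while Dkk3 had -0.44 with Tbx2 and -0.03 with Tbx3. The value for Stard10 and Dkk3 depended on the probe. With the second Stard10 probe, ILMN_2625601, it was 0.40, and 0.84 and 0.37 within the sides. All of these come from the same 12 arrays and share their normalization, and they are given as descriptions. The 3 named genes most like Stard10, among 13999 ranked probes, were Git1 (r = 0.93), Tollip (0.92) and Pfn2 (0.91). Those most like Dkk3 were Rab4a (0.93), the skeletal actin gene Acta1 (0.91) and Pdlim3, which encodes a protein of the muscle Z line (0.89). Tbx2 was most like Xkr5, Ywhah and Abcb8 (0.84 to 0.87) and Tbx3 most like Phf20l1, Zbtb14 and Krtcap3 (0.84 to 0.89). None of the genes named here is on the lists of atrial, sinus or canal genes.

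A list of 14 other atrial genes, of which 13 were measured and 11 were bright, gave a second view of the atrial share. The mean deviation of its bright genes from their 12-heart means was 0.31, 0.19 and -0.17 in WT, -0.04 to 0.00 in MatKO, -0.17 to 0.11 in PatKO and 0.01 in KO. These values rested in part on 1 probe, that of Pam, which encodes an enzyme that amidates peptides. It read 7.86 in KO and 7.99 in MatKO replicate 4, was lower still in MatKO replicate 3, and read 9.60 to 11.57 in the other hearts. A dim Pam probe, ILMN_1236965, did not show this fall. It read 6.45, 6.65 and 6.68 in those same hearts and 6.26 to 7.18 over all 12. Without Pam, left out after its values were seen, the list was at 0.25, 0.06 and -0.32 in WT, -0.06, -0.14, 0.26 and 0.20 in MatKO, -0.10, 0.03, -0.32 and -0.11 in PatKO and 0.23 in KO. WT, MatKO and PatKO overlapped either way. The matching values for 10 bright ventricular genes were -0.12 to 0.16 in WT, -0.06 to 0.08 in MatKO, -0.13 to 0.09 in PatKO and 0.08 in KO, and those for 7 heart muscle genes stayed between -0.15 and 0.16. Of the 13 atrial genes, 4 were higher and 9 lower in PatKO than in MatKO, with a median difference of -0.10. The median was -0.03 for the member probes and -0.00 for all probes, and no atrial gene passed the adjusted threshold. At an unadjusted p under 0.05 in limma were 4 of the 13, 1 higher and 3 lower. In this comparison 7.12% of all probes and 11% of bright probes had such a p.

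Single atrial genes other than Nppa and Myl4 spread further than the list. Kcnj3, Hey1 and Myl7 had the smallest F-test p among its genes. Myl7, the atrial myosin light chain, read 14.32, 13.98 and 13.31 in WT, 14.27, 13.98, 14.37 and 14.47 in MatKO, 14.04, 13.69, 13.39 and 13.66 in PatKO, and 14.51 in KO. PatKO was lower than MatKO by -0.58 (SE 0.21, limma adjusted p = 0.585), and WT replicate 3 was lower than any PatKO heart. The study's own table for this comparison, made at an unadjusted threshold, lists Myl7 too, in the same direction. Hey1, a Notch target of atrial muscle, was at 11.32 to 12.31 in WT and 11.42 to 11.73 in MatKO. It was at 11.08 to 11.24 in PatKO and at 11.62 in KO. PatKO differed from WT by -0.66 (SE 0.19, limma adjusted p = 1) and from MatKO by -0.43 (SE 0.17, limma adjusted p = 0.639). Kcnj3, a subunit of the acetylcholine-activated potassium channel, differed the other way, by 0.65 (SE 0.20, limma adjusted p = 0.512) between PatKO and MatKO, on a dim probe. Nppa, the natriuretic peptide gene, read 15.28 to 15.47, and the ventricular light chain Myl2 read 15.35 to 15.53. Both were near the highest value on the arrays of 15.59, so their differences are compressed. Near that value too were Myl4 (15.18 to 15.39), Myl3 (15.23 to 15.37), Gja1 (15.09 to 15.31) and Tnnc1 (15.33 to 15.59). The narrow range of the lists that hold these genes therefore does not show an equal chamber share. A dimmer Myl4 probe, ILMN_1252533, did not stand for the gene in the list. It read 6.42 to 6.94 in WT, 6.49 to 7.83 in MatKO, 5.84 to 6.96 in PatKO and 6.59 in KO. The study's table lists this probe too.

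Stard10 was the member closest to Myl7, with an r of 0.62 over the 12 hearts and of 0.65 and 0.17 within the sides of the main axis. For Dkk3 the r with Myl7 was 0.21, and 0.70 and 0.69 within the sides. Over 9 bright canal and cushion genes the r of Dkk3 ran from -0.07 with Snai2 to 0.69 with Rspo3 (median 0.46), and over 7 epicardial genes from -0.10 with Aldh1a2 to 0.63 with Tcf21 (median 0.45). Over 11 bright atrial genes it ran from -0.56 to 0.44 (median 0.14). For Stard10 the r over the same 11 atrial genes ran from -0.59 to 0.62 (median 0.22). Over 10 bright ventricular genes the r of Stard10 was higher, from -0.07 to 0.75 (median 0.49), so its r with Myl7 was not particular to atrial genes. Stard10 had an r of 0.61 to 0.70 with the 6 bright liver genes. For Afp, the highest of these, it was -0.33 in the 6 hearts with a negative score and 0.88 in the other 6. The liver plasma protein list had a mean level of 5.62 to 6.12 in WT, 5.38 to 8.48 in MatKO, 5.44 to 9.63 in PatKO and 10.39 in KO. All 8 of its genes had a higher mean in PatKO than in MatKO, beside 48.9% of all probes. Of these, 2 had an unadjusted p under 0.05 in limma, beside 7.12% of all probes, and Alb and Fgb were dim. Not every PatKO heart was high. The mean deviation of the bright liver genes was -2.69 in PatKO replicate 3, beside -2.70 to 1.46 in MatKO. With the liver list as a covariate, 0 member probes passed in any comparison.

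Other genes of the valve canal were mostly lower in PatKO than in MatKO, whereas Tbx2 and Tbx3 were not, and no difference passed the adjusted threshold. Of 11 measured atrioventricular canal and cushion genes, 9 were lower in PatKO than in MatKO, 6 of them with an unadjusted p under 0.05 and none with an adjusted one. In this comparison 7.12% of all probes and 11% of bright probes had an unadjusted p under 0.05. The list's mean deviation was -0.31 to -0.12 in PatKO, -0.11 to 0.07 in WT, -0.05 to 0.36 in MatKO and 0.16 in KO, so KO lay with the controls. Twist1, a factor of cushion mesenchyme, had the smallest F-test p of the canal list. It read 8.35, 8.23, 8.21 and 8.58 in PatKO and 8.97, 9.25, 8.92 and 8.76 in MatKO, a difference of -0.63 (SE 0.12, limma adjusted p = 0.262). The WT hearts, at 8.63 to 8.70, fell between them. Msx1, a homeobox factor of the cushions, gave -0.37 (limma adjusted p = 0.516) and the Wnt agonist gene Rspo3 -0.70 (limma adjusted p = 0.528). Of 7 measured epicardial and mesothelial genes, 5 were lower in PatKO than in MatKO and had an unadjusted p under 0.05, beside the same 7.12% and 11%. The canal and epicardial lists were chosen with earlier results of these data known. Rspo3, Tcf21 and Upk1b are also in the study's own table for this comparison. The counts are therefore descriptions and no independent test. The epicardial genes Tcf21 and Upk1b gave -0.66 and -0.79 (limma adjusted p = 0.348 and 0.487), and the part of attached mesothelium in the canal list was not tested.

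**Figure D5:**
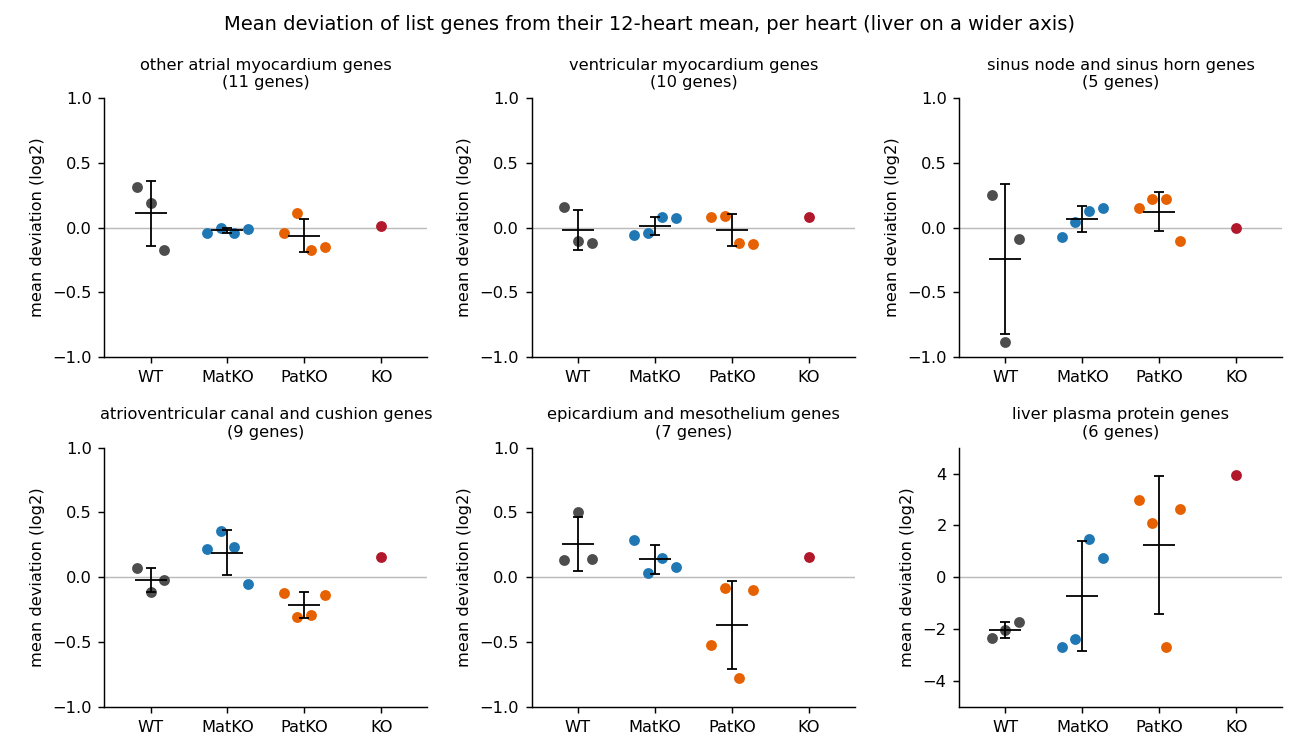
Mean deviation (y axis, log2) of the bright genes of 6 lists from their 12-heart means, per heart and genotype (x axis). Points are hearts and black marks the mean and SD of groups with more than 1 heart. The atrial and ventricular lists stay within -0.17 to 0.31 (the atrial list within -0.32 to 0.26 without Pam), the canal list is lowest in PatKO (-0.31 to -0.12), and the liver list, on a wider axis, reaches 3.95 in KO.

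The sinus list could be read only in part. Of its 11 measured genes, 6 were dim, and Hcn4, the pacemaker channel gene, lay at 4.67 to 4.99 in every heart. Isl1, a factor of sinus node cells and second heart field progenitors, ran from 5.30 in WT replicate 1 to 7.99 in KO. WT, MatKO and PatKO overlapped, and the KO heart was the highest. Tbx18, a factor of the sinus horns and epicardium, read 4.78 in WT replicate 2 and 8.21 to 9.98 in the other 11 hearts on probe ILMN_1246123. In that heart the sinus list was at -0.88, and in the others between -0.10 and 0.25. Without Tbx18 all 12 hearts lay between -0.18 and 0.15. Between PatKO and MatKO, 5 sinus genes were higher and 6 lower, with none at an unadjusted p under 0.05. The 8 lung genes were all dim, with a mean level of 4.93 to 5.49 in every heart.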

How the data were processed

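RNA of 12 embryonic mouse hearts was measured on Illumina WG-6 BeadChips, 1 array per heart, and hearts were grouped by the genotype in their labels. The log2 values deposited by the authors had been background-corrected (neqc) and normalized between arrays. GenomeStudio and limma are named in the submitters' processing notes without versions. The chips are called Affymetrix in the methods, whereas probe names are those of Illumina. Normalization to a common distribution makes all differences relative. A scanner table of 24 columns was not used, since its column names match no heart.

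Linear models were run for every probe in limma 3.58.1 (lmFit and eBayes, R 4.3.3), with 4 genotype levels over all hearts, and a separate model of 2 groups set ablated against control hearts. Tests were two-sided, adjusted by Benjamini-Hochberg over 45267 probes, with a threshold of 0.05. The lone KO heart was assumed to vary like the other groups. Intervals at 95% are pointwise. The fitting step was tested on simulated data. Platform annotation gave 34875 probes 1 symbol, 18 several and 10374 none. Means of 7 or more were called bright. Lists used the brightest probe of a gene, and mean levels all measured genes.

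All probes of the members are reported, and other genes are the 3 most like each bright member over 12 hearts, up to 3 per list with the smallest F-test p, and Nppa, Myl7, Myl2, Ddc and Xist. Hcn4, Tbx18, Pam, Snai2, Aldh1a2, Afp, Myl4, Myl3, Gja1 and Tnnc1 were added after their values were seen. Members and lists were chosen with earlier results of these data known. Alternatives were a replicate block, array weights, trended and robust variance, covariates, groups compared only, other scalings, dim probes left out and each heart left out. A sign change of a gene was counted as a reversal where either fit had an unadjusted p under 0.05. The number of arrays limits the precision.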

Additional observations from a re-analysis of the deposited data

Results flagged for a closer look

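Within groups of 4 hearts, 1 heart stood far from the other 3 by Dixon's criterion in 4 of the 42 groups tested (21 probes in MatKO and in PatKO), where chance flags about 1 in 20. MatKO replicate 3 read 5.71 on Dkk3 probe ILMN_1224173, where the other MatKO hearts read 5.07 to 5.14. On Fgf12 probe ILMN_1221164, MatKO replicate 2 read 5.46 beside 6.00 to 6.08, and PatKO replicate 1 read 6.01 beside 5.36 to 5.45. These 3 values are on dim probes. On the bright Tbx3 probe ILMN_1247220, MatKO replicate 3 read 9.61 and the other MatKO hearts all read 9.57, so the gap was small.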

How the results depend on the processing

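The count of member probes past an adjusted p of 0.05 was 0 in each of the 6 comparisons and stayed 0 in all 135 counts under alternatives, among them each heart left out. The smallest adjusted p of a member probe was 0.0889, for KO against WT with a trended and robust variance. With the replicate number as a block, member probes called were 0 in every comparison. Same-numbered hearts correlated at -0.35 to 0.54 in their deviations from group means, so the numbers do not pair them. The 35 differences of the brightest member probes kept their side of the threshold in 846 values under alternatives, although 56 of 776 changed sign, none with an unadjusted p under 0.05 in either fit. Counts over all probes moved more: KO against WT called 33 probes and 5 to 109 under alternatives, the F test 14 and 3 to 44, ablated against control 4 and 3 to 19, PatKO against WT 3 and 3 to 7, PatKO against MatKO 3 and 3 to 7, and MatKO against WT 0 and 0 to 4. Probes with a mean under 7 limit what can be said of Nr2f2, Shox2 and Fgf12.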
